A study of Mus musculus with 12 samples.

Results

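Immunity-related GTPases (IRGs) are a family of interferon-inducible GTP-binding proteins, and 6 of them were followed here through all 9 array probes that carry their names, out of 41174 probes and, after a filter on dim probes, 18274 genes. The regulatory members were Irgm (Irgm1 in current naming), Iigp2 (Irgm2) and Igtp (Irgm3), and the effector members were Iigp1 (Irga6), Tgtp (Tgtp1, Irgb6) and Ifi47 (Irgd). The probes were found by the gene names in the array files, and the choice of probes within a gene used no difference between groups. All 9 probes passed the filter, and the brightest probe represented each gene.

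RNA came from peritoneal exudate cells, a mixed population obtained by flushing the peritoneal space, of female mice aged 8 weeks on the background given as 129S2/SvPas*BALB/c. There were 4 groups of 3 mice, each mouse on its own single-colour Agilent array: Ifnar2-/- mice given interferon beta (IFN-β), Ifnar2-/- mice given phosphate-buffered saline (PBS), wild-type mice given IFN-β and wild-type mice given PBS. Cells were taken 3 hours after injection into the abdominal cavity, with IFN-β stated as 10000 IU/ml and the volume not given. Ifnar2 encodes one chain of the type I interferon receptor, and the labels name the genotype without describing the allele.

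IRG proteins were studied mostly as products of interferon gamma signalling in mouse cells, where they defend against intracellular parasites and bacteria. Effector members load onto the membrane of the vacuole that surrounds Toxoplasma gondii and help to break it open. Regulatory members sit on the membranes of the cell's own organelles and hold the effectors inactive there, and Irgm1 is in addition needed by mice against mycobacteria. Type I interferons act through the receptor of Ifnar1 and Ifnar2 and a factor complex that includes Stat2 and Irf9 and binds interferon-stimulated response elements (ISREs), while interferon gamma signalling acts through gamma-activated sites (GAS).

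The promoters are shown because the members moved together and because 3 of them, the regulatory Irgm2 and Igtp and the effector Tgtp1, share a motif arrangement. Promoters were taken from RefSeq (GRCm38.p6) for Irgm1, Irgm2, Igtp, Tgtp1 and Ifi47 and for Tgtp2, a gene closely related to Tgtp1. Each was searched on both strands, over 300 bases around the start site, for an ISRE-like match (GAAA, any 2 bases, then GAAA) and a GAS-like match (TTC, any 3 bases, then GAA). In the 60-base windows below, written 5′ to 3′ on the gene's strand, capitals mark both kinds of match.
Irgm1, chr11:48871425-48871484, minus strand: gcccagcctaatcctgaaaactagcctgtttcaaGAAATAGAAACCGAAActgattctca
Irgm2, chr11:58214873-58214932, plus strand: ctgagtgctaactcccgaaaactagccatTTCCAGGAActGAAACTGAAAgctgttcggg
Igtp, chr11:58199482-58199541, plus strand: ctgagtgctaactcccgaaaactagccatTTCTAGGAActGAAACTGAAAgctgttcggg
Tgtp1, chr11:48992304-48992363, minus strand: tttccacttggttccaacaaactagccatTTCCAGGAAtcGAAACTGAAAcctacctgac
Tgtp2, chr11:49064263-49064322, minus strand: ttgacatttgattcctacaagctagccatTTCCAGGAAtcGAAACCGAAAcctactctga

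The Irgm2, Igtp, Tgtp1 and Tgtp2 windows each held 1 GAS-like match followed by 1 ISRE-like match. The Irgm1 window held 2 ISRE-like matches that overlap, and its promoter held no GAS-like match. The Irgm2 and Igtp windows were identical at 59 of 60 bases, Tgtp1 and Tgtp2 at 48 of 60, and Igtp and Tgtp1 at 37 of 60. Of 32851 RefSeq mouse promoters of this length, 3.44% held an ISRE-like match, 8.3% a GAS-like match and 0.454% both. Having both was not particular to the IRGs. Among guanylate-binding protein genes searched in the same way, Gbp5 and Gbp7 each held 1 ISRE-like and 2 GAS-like matches. Gbp2b and Gbp2 each held 1 ISRE-like match and no GAS-like match. Gbp3 had 2 promoters, of which 1 held 2 ISRE-like matches and the other neither kind. Ifi47 had neither match in its window. The promoter of Iigp1 was left out of this search, so nothing is said here of its motifs. A match to these letters is a description of the sequence and was not tested as a binding site.

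The member probes lay in 3 places of the genome build named in the array files (mm7, NCBI35). Irgm (probe A_51_P262171, chr11:48822320-48822379), Tgtp (A_52_P676510, chr11:48943424-48943483) and Ifi47 (A_51_P129229, chr11:49053428-49053487) lay near each other on chromosome 11. Igtp (A_51_P112355, chr11:58288970-58289029) and Iigp2 (A_51_P416295, chr11:58304107-58304166) lay side by side further along that chromosome, and Iigp1 (A_51_P387239, chr18:60781938-60781997) lay on chromosome 18. No member probe shared a run of over 15 of its 60 bases with a probe of another gene. That search covered array probes on the same strand and no transcripts, so it does not show which RNAs the probes read. Whether the Tgtp probes also read RNA of Tgtp2 was not tested, so the split of their signal between the genes is uncertain.

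The arrays held 43379 spots each that were not controls, of which 59.4% to 71.6% were well above background. Slide 1 held the wild-type PBS arrays and 1 wild-type IFN-β array, slide 2 held 2 wild-type IFN-β arrays and 1 array of each Ifnar2-/- group, and slide 3 held the other 4 Ifnar2-/- arrays. The slide 3 arrays stood apart, with 59.4% to 62.5% of spots well above background. Correlations of arrays within a group lay between 0.97 and 0.99. The check of Ifnar2 itself was mixed, since 1 of its 2 probes was lower in Ifnar2-/- than in wild-type cells after PBS and the other was higher. Probe A_52_P190405 of Ifnar2 differed by -1.85 on the log2 scale (SE 0.14, adjusted p 5.47e-05) and probe A_51_P338924 by 0.96 (SE 0.18, adjusted p 0.0149), and the position of neither relative to the deleted part is given in the sources used here. Macrophage markers were well above background on all arrays for 8 of 8 genes on the list. So were 8 of 8 B cell, 8 of 8 mast cell and 10 of 10 T and NK cell markers, so these counts do not single out a cell type.

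The first comparison asked whether IFN-β raised the IRGs in wild-type cells. All 6 members rose, by 22.4-fold to 145-fold, and the largest increases were those of the effectors Tgtp and Iigp1. Over all 18274 genes, 17.6% rose in this comparison and the median log2 fold change was -0.04, against a median of 4.98 over the members. Values below are log2 signals scaled by subtracting the 75th percentile of the same array, so that 0 stands for a spot as bright as that percentile.

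Among the effectors, Iigp1, which coats the parasite vacuole, had values of 7.40, 7.19 and 7.46 after IFN-β and 0.57, 0.66 and 0.24 after PBS in wild-type cells. It rose by 6.86 on the log2 scale (SE 0.43, limma adjusted p 8.66e-07), which is 117-fold. Tgtp, another vacuole-binding effector first known from T cells, had 6.37, 6.52 and 6.64 after IFN-β and -1.01, -0.77 and -0.22 after PBS. The groups were thus separated by more than 6 log2 units for both genes. Tgtp rose by 7.18 (SE 0.24, adjusted p 1.30e-08), which is 145-fold. Ifi47 had 6.79, 6.44 and 7.04 after IFN-β and 1.47, 1.44 and 2.15 after PBS, and rose by 5.07 (SE 0.22, adjusted p 5.72e-08), which is 33.5-fold.

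Among the regulatory members, Irgm, which resides on the Golgi, mitochondria and lysosomes, had 6.36, 6.31 and 6.41 after IFN-β and 1.36, 1.43 and 1.64 after PBS in wild-type cells. It rose by 4.89 (SE 0.12, adjusted p 1.68e-09), which is 29.6-fold. Iigp2, found at the Golgi, had 6.05, 5.94 and 6.33 after IFN-β and 1.34, 1.25 and 1.49 after PBS. It rose by 4.75 (SE 0.12, adjusted p 2.82e-09), which is 26.9-fold. Igtp, found at the endoplasmic reticulum, had 7.34, 7.0 and 7.48 after IFN-β and 2.65, 2.74 and 2.97 after PBS, and rose by 4.49 (SE 0.14, adjusted p 9.77e-09), which is 22.4-fold. For each of the 6 members every IFN-β array lay above every PBS array, as it did for 24.6% of all genes. Within slide 1, which held 1 IFN-β array and the 3 PBS arrays, the log2 rises were 6.92 for Iigp1, 7.03 for Tgtp, 5.10 for Ifi47, 4.89 for Irgm, 4.69 for Iigp2 and 4.55 for Igtp. The limma adjusted p values in that slide were 0.00115 to 0.00331, with the lone IFN-β array assumed to vary like the PBS arrays.

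**Figure D1:**
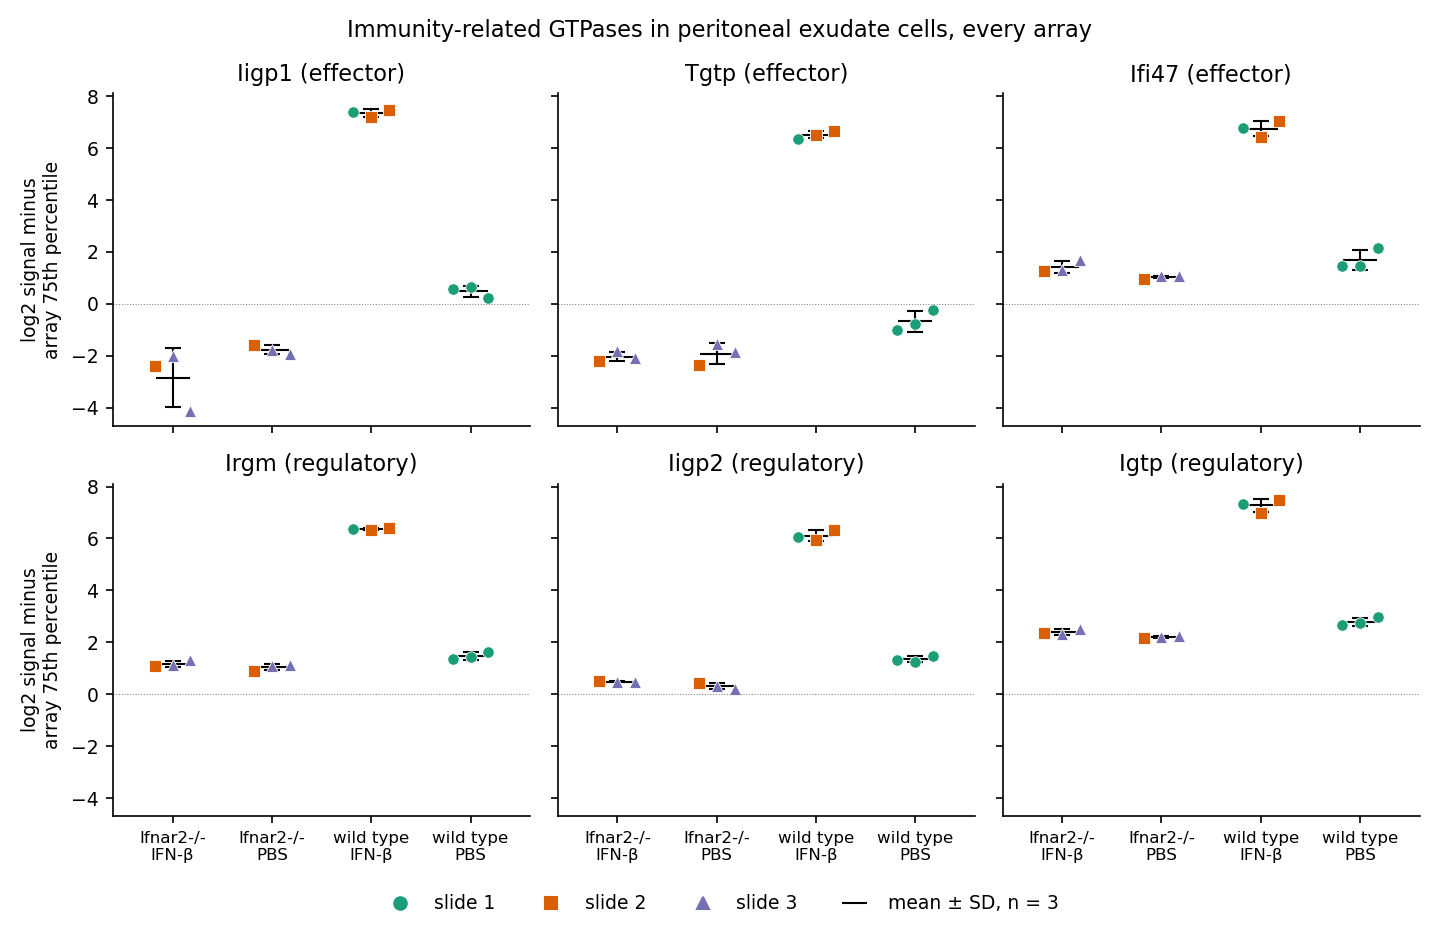
Scaled log2 signal (0 is the 75th percentile of the array) for each member on every array, with colours and symbols for the 3 slides and black bars for mean ± SD of 3 mice per group. The wild-type IFN-β arrays lie far above the other 9 arrays for all 6 members, and Iigp1 has 1 low Ifnar2-/- IFN-β array at -4.11.

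The members differed in the size of their rise. The mean log2 response was 6.37 over the 3 effectors and 4.71 over the 3 regulatory members, a difference of 1.66. Averaged over each role and taken relative to the wild-type PBS mean, the 3 wild-type IFN-β arrays gave 6.35, 6.21 and 6.54 for the effectors and 4.71, 4.54 and 4.87 for the regulatory members. The difference came from Iigp1 and Tgtp: their 95% intervals, 5.92 to 7.81 and 6.65 to 7.70, lay above those of the regulatory members, which together ran from 4.17 to 5.14. The interval of Ifi47, 4.59 to 5.54, overlapped all of them. Members are 6 genes and not replicates, so no test was made of the roles, and brightness scales of different probes need not match.

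The 3 further member probes also rose in wild-type cells. A second Irgm probe (A_52_P126158, chr11:48822670-48822729) rose by 5.13 (SE 0.13, adjusted p 2.18e-09). The remaining Irgm probe (A_52_P212774, chr11:48819462-48819521) was well above background only on the 3 wild-type IFN-β arrays, where it had -3.20, -3.61 and -4.08, and was at least 7.43-fold higher there than after PBS. That bound sets the mean of the bright arrays against the dimmest signal still above background on each dim array. A second Tgtp probe (A_51_P478722, chr11:48942838-48942897) had 1.11, 0.99 and 1.19 after IFN-β and -5.85, -5.45 and -5.88 after PBS, and rose by 6.83 (SE 0.20, adjusted p 4.22e-09).

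Marker signals of cell types were compared between wild-type mice given IFN-β and PBS, where 17.6% of all genes rose and 21.8% fell. The marker sums overlapped between these groups for the T and NK cell, B cell, neutrophil and erythroid lists. The summed level of 5 measured monocyte markers, as multiples of the 75th percentile, was 230 to 275 after IFN-β and 70.9 to 103 after PBS, and 4 of the 5 rose. The summed macrophage markers were 674 to 789 after IFN-β and 481 to 590 after PBS, where 2 of 8 rose and 1 of these, Fcgr1, is also an interferon-inducible gene. Mesothelial marker sums were 1.02 to 1.22 after IFN-β and 1.83 to 2.22 after PBS, and 4 of 7 fell. Mast cell marker sums were 173 to 199 after IFN-β and 200.4 to 281 after PBS, and 3 of 8 fell. Of the T and NK cell markers 5 of 10 fell and 1 rose, with sums of 5.85 to 6.41 after IFN-β and 6.36 to 7.77 after PBS. Of the B cell markers 2 of 8 fell, with sums of 195 to 242 after IFN-β and 191 to 282 after PBS. Of the neutrophil markers 1 of 8 fell, with sums of 16.8 to 24.2 after IFN-β and 10.1 to 109 after PBS. Of 3 tested erythroid markers 0 passed, with sums of 48.7 to 515 after IFN-β and 6.03 to 63.5 after PBS. In bulk samples a change in the number of cells of a type and a change in RNA per cell cannot be told apart, for rises as for falls. The part of these shifts in the members' values was not tested.

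The second comparison asked whether any member responded without Ifnar2. None of the 6 passed the threshold in limma, while 0.925% of all genes rose and 0.208% fell, and 1 member had an unadjusted p under 0.05. Among the regulatory members, Igtp had 2.36, 2.33 and 2.53 after IFN-β and 2.18, 2.21 and 2.24 after PBS in Ifnar2-/- cells. The log2 difference of Igtp was 0.20 (95% interval -0.11 to 0.51), that of Iigp2 0.18 (-0.10 to 0.45) and that of Irgm 0.12 (-0.14 to 0.37). Ifi47 had 1.26, 1.31 and 1.69 after IFN-β and 0.97, 1.06 and 1.06 after PBS, a difference of 0.38 (-0.09 to 0.86). The IFN-β arrays lay above all PBS arrays for Iigp2, Igtp and Ifi47, as they did for 11.3% of all genes, and below them for Iigp1, as for 12.2%. The groups overlapped for Irgm and Tgtp. The Ifnar2-/- arrays with the same replicate number had correlated deviations from their group means, and each such pair shared a slide. Replicates 2 and 3 of both groups lay on slide 3. Correlations of unlike-numbered arrays on that slide are not given, so a shared slide and a pairing of mice are not told apart here. Within pairs the IFN-β array was above the PBS array in 3 of 3 for Irgm, Iigp2, Igtp and Ifi47. It was above in 1 of 3 for Tgtp and in 0 of 3 for Iigp1. The share of all genes with 3 of 3 was not computed, so these counts are not read as a response. In a limma fit of the 6 Ifnar2-/- arrays with the pair as a block, an alternative added after seeing the data, 0 members passed (adjusted p 0.323 to 0.693). With it 0 genes rose and 0 fell over all genes tested, against 169 and 38 as reported.

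At the probes that represent the genes, Iigp1 and Tgtp had lower means after IFN-β than after PBS in Ifnar2-/- cells, unlike the other 4 members. The second Tgtp probe went the other way, by 0.41 (SE 0.20, limma adjusted p 0.291). It was well above background on 1 of 3 arrays in each Ifnar2-/- group. Iigp1 had -2.39, -2.01 and -4.11 after IFN-β and -1.57, -1.79 and -1.92 after PBS. The difference was -1.08 (95% interval -2.02 to -0.13, p 0.0292, limma adjusted p 0.222), and Iigp1 is the member with the unadjusted p under 0.05. Without Ifnar2-/- IFN-β mouse 3, the lowest array, it was -0.44 (adjusted p 0.366). Tgtp had -2.18, -1.83 and -2.08 after IFN-β and -2.35, -1.53 and -1.86 after PBS, a difference of -0.12 (95% interval -0.65 to 0.41) whose sign turned under 4 settings. Within slide 2, with 1 array in each Ifnar2-/- group, Tgtp differed by 0.17 and Iigp1 by -0.82, and within slide 3, with 2 in each, by -0.26 and -1.21. The neutrophil marker sum was 21.4 to 200 after IFN-β and 12.4 to 17.3 after PBS in Ifnar2-/- cells, and its part in these values was not tested.

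The response of Ifnar2-/- cells was smaller than that of wild-type cells for all 6 members in a test of the difference itself, a direction in which 9.09% of all genes passed. The difference of log2 responses, Ifnar2-/- minus wild type, was -7.94 for Iigp1 (SE 0.60, adjusted p 1.00e-05), -7.29 for Tgtp and -4.68 for Ifi47. It was -4.77 for Irgm (SE 0.16, adjusted p 7.15e-08), -4.57 for Iigp2 and -4.28 for Igtp. The highest upper bound of a 95% interval in Ifnar2-/- cells was 0.86, for Ifi47, and the lowest lower bound in wild-type cells was 4.17, for Igtp. The mean response in Ifnar2-/- cells was -0.27 over the effectors and 0.16 over the regulatory members. The effectors ran from -1.08 for Iigp1 to 0.38 for Ifi47, a span that covers the regulatory members (0.12 to 0.20).

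**Figure D2:**
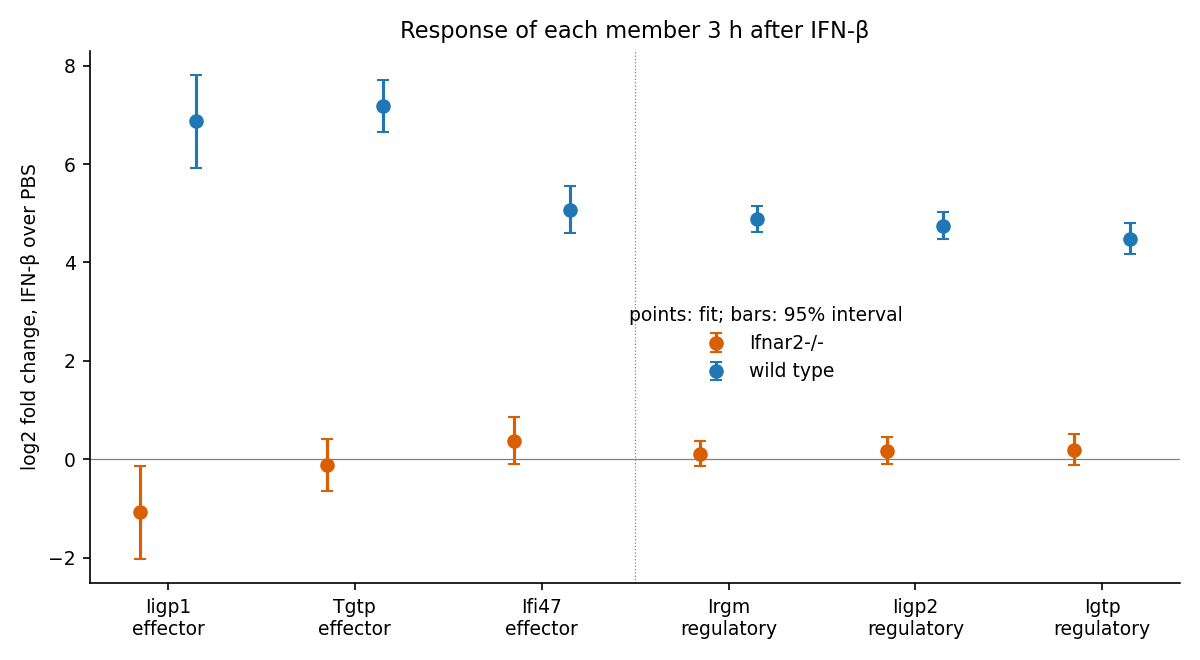
Log2 fold change of IFN-β over PBS for each member in Ifnar2-/- cells (orange) and wild-type cells (blue), with 95% intervals from the limma fit on 3 mice per group. Wild-type values lie between 4.49 and 7.18 and Ifnar2-/- values between -1.08 and 0.38.

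The levels after PBS asked whether the IRGs differed between genotypes without injected interferon. All 6 members had lower means in Ifnar2-/- than in wild-type cells, and 4 of them, Iigp1, Tgtp, Iigp2 and Igtp, passed the threshold, against 2.04% of all genes in this direction. For all 6 members the Ifnar2-/- PBS arrays lay below every wild-type PBS array, as they did for 13.7% of all genes. No slide held PBS arrays of both genotypes, so these differences rest on comparisons across slides. With slide as a fixed block, which links the genotypes after PBS only through the IFN-β arrays, 0 of the 6 passed. Over all 18274 genes, 18 were lower and 13 higher with that block, against 372 and 520 as reported.

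By member, Iigp1 had -1.57, -1.79 and -1.92 in Ifnar2-/- cells and 0.57, 0.66 and 0.24 in wild-type cells after PBS. It was lower by 2.25 log2 units in Ifnar2-/- cells, which is 0.211 of the wild-type level (log2 difference -2.25, SE 0.43, adjusted p 0.0143). With the slide block the difference was -1.85 (adjusted p 0.888). Tgtp had -2.35, -1.53 and -1.86 in Ifnar2-/- cells and -1.01, -0.77 and -0.22 in wild-type cells, a difference of -1.25 (SE 0.24, adjusted p 0.0150), or -1.76 with the slide block (adjusted p 0.246). The second Tgtp probe, which was above background on 1 Ifnar2-/- PBS array of 3, differed by -0.25 (SE 0.20, adjusted p 0.508).

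Iigp2 had 0.42, 0.33 and 0.20 in Ifnar2-/- cells and 1.34, 1.25 and 1.49 in wild-type cells after PBS. Its difference of -1.04 (SE 0.12, adjusted p 0.000908) had the smallest adjusted p of the members in this comparison, and was -1.06 with the slide block (adjusted p 0.258). Igtp had 2.18, 2.21 and 2.24 in Ifnar2-/- cells and 2.65, 2.74 and 2.97 in wild-type cells. The difference of Igtp was -0.58 (SE 0.14, adjusted p 0.0440), or -0.51 with the slide block (adjusted p 1.00), and it missed the threshold under 13 of 25 other settings.

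Irgm and Ifi47 did not pass after PBS. Irgm had 0.91, 1.10 and 1.13 in Ifnar2-/- cells and 1.36, 1.43 and 1.64 in wild-type cells, a difference of -0.43 (SE 0.12, adjusted p 0.0679). Its second probe gave -0.47 (SE 0.13, adjusted p 0.0789). Ifi47 had 0.97, 1.06 and 1.06 in Ifnar2-/- cells and 1.47, 1.44 and 2.15 in wild-type cells, a difference of -0.65 (SE 0.22, adjusted p 0.127). The mean difference was -1.38 over the effectors and -0.68 over the regulatory members. Mast cell marker sums were 303 to 365 in Ifnar2-/- and 200 to 281 in wild-type cells after PBS, monocyte marker sums were 59.9 to 79.2 and 70.9 to 103 in the same order of genotypes, and their part in these differences was not tested.

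**Figure D3:**
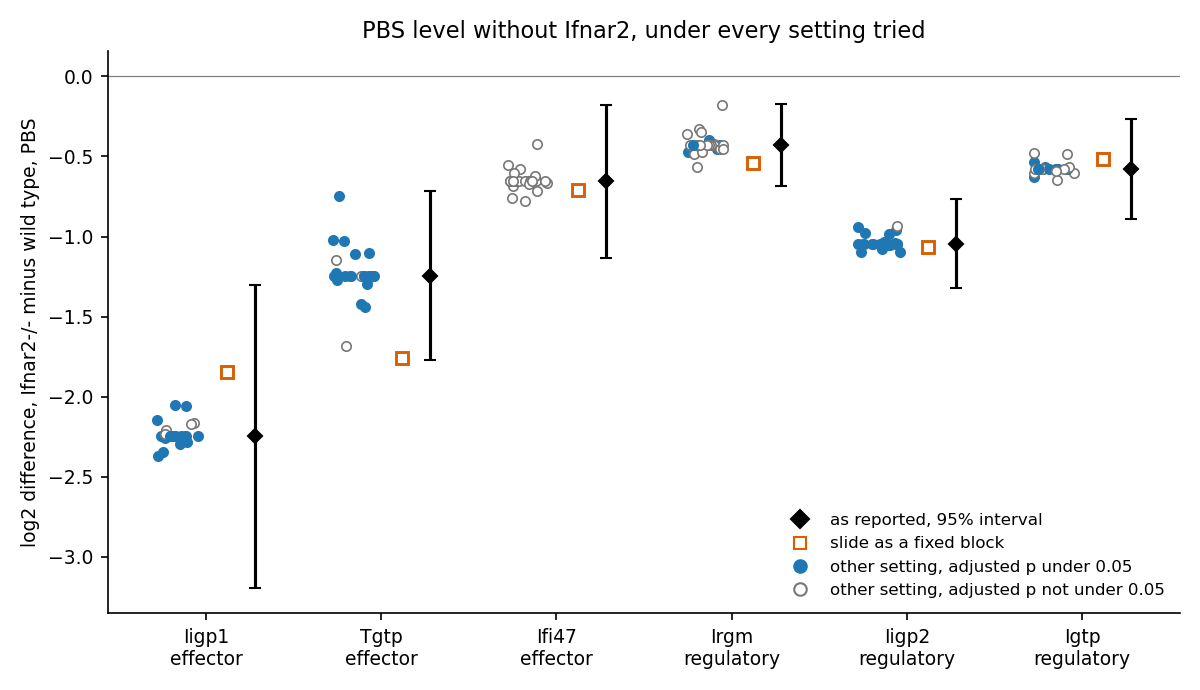
Log2 difference after PBS, Ifnar2-/- minus wild type, for each member as reported (black, 95% interval), with slide as a fixed block (orange squares) and under each other setting (circles, filled where the adjusted p was under 0.05). Every point lies below 0, and no orange square passed the threshold, in a setting where 18 of 18274 genes were lower.

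After IFN-β all 6 members were lower in Ifnar2-/- than in wild-type cells, against 17.2% of all genes, and the arrays of the genotypes did not overlap, as for 21.2% of all genes. The log2 differences were -10.19 for Iigp1 (SE 0.43, adjusted p 3.95e-08), -8.54 for Tgtp, -5.34 for Ifi47, -5.20 for Irgm, -5.62 for Iigp2 and -4.86 for Igtp. Slide 2 held IFN-β arrays of both genotypes, and within it the differences were -9.71, -8.76, -5.48, -5.29, -5.63 and -4.88 in that order of genes. They set 1 Ifnar2-/- array against 2 wild-type arrays and are given without a test. These comparisons share arrays with those above and are no separate evidence.

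Other interferon-inducible GTPases were set beside the members from lists of gene names. Guanylate-binding proteins (GBPs), large GTPases that gather on the same vacuoles, rose in wild-type cells for 9 of 9 tested genes, with a median of 5.09 (from 2.72 for Gbp3 to 6.97 for Gbp6). Of all genes 17.6% rose in wild-type cells. In Ifnar2-/- cells 0 of 9 GBPs passed, where 0.925% of all genes rose and 0.208% fell. The difference of responses passed for 9 of 9, in the direction in which 9.09% of all genes passed. Mx1, an antiviral dynamin-like GTPase, rose by 8.48 (SE 0.51, adjusted p 7.50e-07), Mx2 by 7.31 (SE 0.42) and Gvin1, a very large GTPase, by 2.32 (SE 0.17). Of 4 tested IRG genes outside the 6 members, Gm5431 rose by 2.67 (SE 0.23) and 9930111J21Rik2 by 2.87 (SE 0.16), Irgq fell by 1.48 (SE 0.13, adjusted p 9.93e-06) and Irgc1 differed by -0.60 (SE 0.35, adjusted p 0.208).

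**Figure D4:**
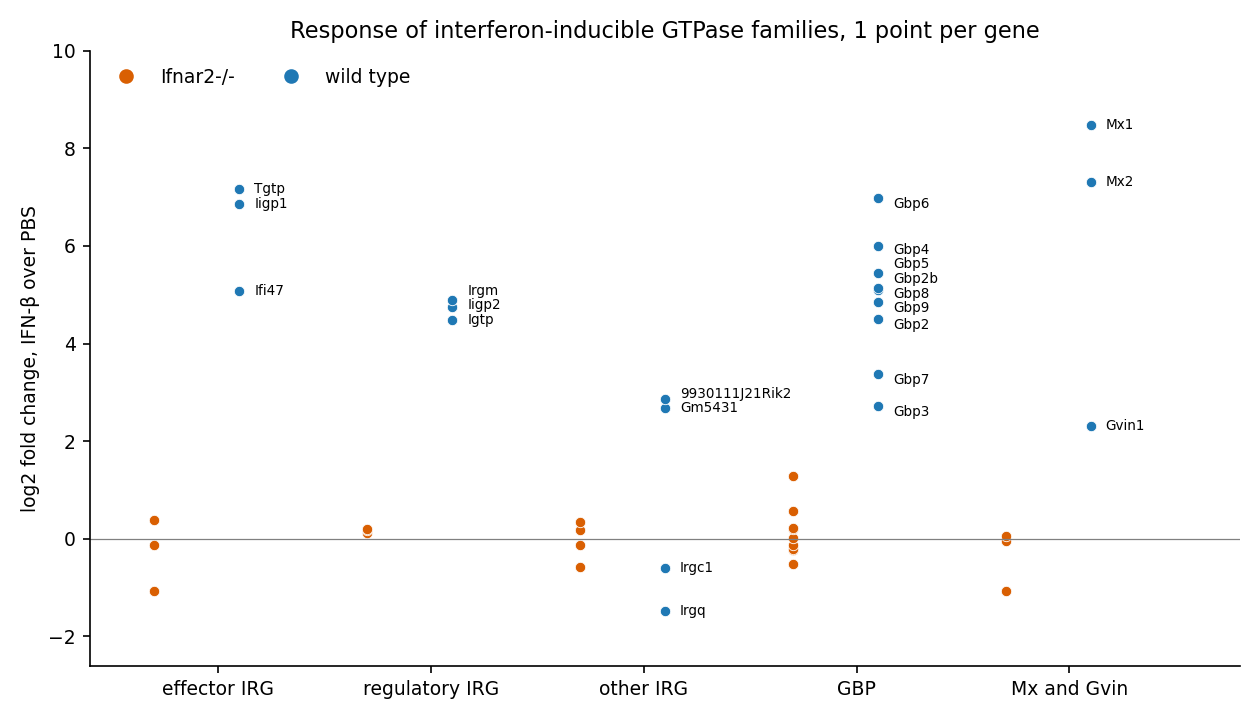
Log2 fold change of IFN-β over PBS, 1 point per gene, in Ifnar2-/- cells (orange) and wild-type cells (blue) for the effector and regulatory IRGs, other IRG genes, GBPs, and Mx and Gvin genes. The wild-type GBPs span 2.72 to 6.97, which covers 5 of the 6 members, and Tgtp at 7.18 lies above them.

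After PBS, 5 of 9 GBPs were lower in Ifnar2-/- than in wild-type cells, as were 2.04% of all genes. Gbp6 was above background on none of 3 Ifnar2-/- arrays and was at least 2.98-fold lower there. Gbp2b differed by -1.46 (SE 0.19), Gbp2 by -1.14 (SE 0.15), Gbp3 by -1.01 (SE 0.13) and Gbp7 by -0.90 (SE 0.12), with adjusted p values from 0.00139 to 0.00199. Mx2 differed by -2.27 (SE 0.42, adjusted p 0.0119). Mx1 was well above background on 1 of 3 Ifnar2-/- PBS arrays, so its fitted difference of -2.33 (SE 0.51, adjusted p 0.0280) rests in part on signal not well above background. With slide as a fixed block 0 of these 5 GBPs and neither Mx gene passed, and all 7 kept the lower mean in Ifnar2-/- cells. With that block 18 of all 18274 genes were lower. Without Ifnar2-/- PBS mouse 2 neither Mx gene passed, and without wild-type PBS mouse 1, 2 or 3 or Ifnar2-/- PBS mouse 3 only 1 did.

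Upstream of the IRGs, 8 of 14 listed receptor, kinase and factor genes rose and 1 fell after IFN-β in wild-type cells, against 17.6% and 21.8% of all genes. Socs1, a feedback inhibitor of the pathway, rose by 5.40 (SE 0.41, adjusted p 3.53e-06), Ifng, which encodes interferon gamma, by 4.20 (SE 0.39, adjusted p 1.56e-05) and Stat2 by 3.58 (SE 0.14, adjusted p 3.28e-08). Irf1, a factor that binds ISRE-like sites, rose by 2.69, while Ifngr1, a chain of the interferon gamma receptor, fell by 1.14. Ifng had -0.52, -0.87 and -0.88 after IFN-β and -5.22, -5.42 and -4.23 after PBS. In Ifnar2-/- cells 0 of the 14 passed, where 0.925% of all genes rose and 0.208% fell. After PBS, Irf9 was lower in Ifnar2-/- than in wild-type cells (-0.97, SE 0.13, limma adjusted p 0.00187). Irf8, a factor of the myeloid lineage, was higher there (0.71, SE 0.14, limma adjusted p 0.0140), as were 2.85% of all genes. With the slide block neither passed, and 18 of all genes were lower and 13 higher.

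The ATG8 conjugation genes, whose products place IRGs and GBPs on vacuoles, were near the overall rate in wild-type cells: 3 of 13 rose, 3 fell and 7 did not pass, while 17.6% of all genes rose and 21.8% fell. Atg3 rose by 0.65 (SE 0.10), Atg4b by 0.46 (SE 0.11) and Atg16l1, a scaffold of the conjugation complex, by 0.36 (SE 0.11). Gabarapl1, an ATG8 protein, fell by 1.49 (SE 0.15), the receptor Sqstm1 by 0.72 (SE 0.20) and Map1lc3b by 0.52 (SE 0.17). The rise of Atg4b turned to -0.061 when its probes were averaged. Of 26 other settings, Atg16l1 missed the threshold in 11 and Map1lc3b in 10, and the number that fell was 2 to 5 when single arrays were left out. It was 5 without Ifnar2-/- IFN-β mouse 3. In Ifnar2-/- cells 0 of 13 passed, where 0.925% of all genes rose and 0.208% fell.

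The genes with the pattern most like the mean of the 6 members were found over the 12 arrays, each gene taken relative to its own wild-type PBS mean, among 15275 genes well above background on all arrays. By root mean square difference in log2 units the nearest 8 were Zbp1, a nucleic acid sensor (0.36), Fcgr1, an immunoglobulin receptor (0.36), Gbp2b (0.37), Phf11d (0.43), Gbp9 (0.44), Eif2ak2, the kinase PKR (0.47), Isg20, an exonuclease (0.50), and Gbp4 (0.50). Their rises in wild-type cells ran from 4.84 for Gbp9 to 6.09 for Zbp1. By the same measure the members themselves lay between 0.42 (Iigp2) and 1.5 (Iigp1) from their mean, so 5 of the 6 were farther from it than each of these 8 genes.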

How the data were processed

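Per the file headers, Agilent Feature Extraction 9.5.3.1 made the deposited processed signal, a background-subtracted and detrended intensity on a linear scale that is not normalized between arrays. The deposited series table held the same intensities (0 of 45018 rows differed) and was not analysed apart. From these, log2 values minus each array's 75th percentile were computed. Spots marked as outliers were left out, and spots of a probe were averaged. Probes entered if every array of 1 group or more marked them well above background and 6 or more arrays gave a value, which left 27715 probes. The brightest probe stood for a gene, and genes were named through RefSeq tables (22951 probes by accession, 6659 by symbol, 3109 by an older symbol, 8455 with the name in the files).

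All 12 arrays entered a limma 3.58.1 fit in R 4.3.3 with 4 group means and 5 comparisons. Tests were two-sided, with Benjamini-Hochberg adjustment over 18274 genes (over the 27715 probes for values of further member probes and of Ifnar2 probes) and a threshold of 0.05. The fit had 8 residual and 2.38 prior degrees of freedom. Errors are SE from the fit. Mice differed between samples, so the spread includes animals, and the number of arrays limits precision. The steps were tested on simulated data. Alternatives changed background correction, scaling, filter, probe choice, blocks, weights and the arrays included. The members and gene lists were chosen with earlier results of these data known. Named genes were the members, in each list up to 3 passing genes with the largest change and any passing against the list's majority, any tested IRG or GBP, and the 8 genes most like the members. A few further genes of the upstream, ATG8 and neighbour sets were named after their values were seen. One gene of the upstream list is counted but not reported here by name. Between the Ifnar2-/- groups the deviations of same-numbered arrays correlated at 0.51, 0.19 and 0.10, and no label pairs them. These arrays also shared slides, so the correlations do not show that the mice were paired. No other pair of groups had every correlation over 0.1.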

Additional observations from a re-analysis of the deposited data

Results flagged for a closer look

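For every member the response to IFN-β differed between the genotypes in limma's test of the difference itself. The log2 response of Ifnar2-/- cells minus that of wild-type cells was -4.77 for Irgm, -4.57 for Iigp2 and -4.28 for Igtp. It was -7.94 for Iigp1, -7.29 for Tgtp and -4.68 for Ifi47. The limma adjusted p values over 18274 genes ran from 7.15e-08 to 1.00e-05, and 9.09% of all genes passed in this direction. In wild-type cells taken alone, every IFN-β array lay above every PBS array for all 6, as for 24.6% of all genes.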

How the results depend on the processing

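Over 29 alternative settings, all 156 values of the members' response in wild-type cells, all 144 of the difference of responses and all 156 of the genotype difference after IFN-β kept their direction and side of the threshold. The number of members passing after PBS was 4 as reported, where 372 of all genes were lower. It was 2 with no scaling between arrays (284 genes lower) and 0 with slide as a fixed block (18 genes lower). It was between 2 and 5 when single arrays were left out. Without wild-type PBS mouse 1 or 2 or Ifnar2-/- PBS mouse 2 or 3 it was 2, where 181, 251, 188 and 211 genes were lower in that order. Without slide 3, which leaves 1 array per Ifnar2-/- group, the members' differences ran from -2.06 to -0.57. Of 150 single values in that comparison, 24 no longer passed, 7 newly passed and none changed sign, and the causes were not tested. Tgtp in Ifnar2-/- cells, -0.12 as reported, was 0.15 with probes averaged, 0.17 without slide 3 and within slide 2, and from -0.34 to 0.073 when single arrays were left out, the highest without Ifnar2-/- PBS mouse 2. Atg4b in wild-type cells was -0.061 with probes averaged. The effector minus regulatory difference in wild-type cells, 1.66, was 1.57 with normexp background correction and 1.76 with quantile normalization. With no scaling the median log2 change of all genes in wild-type cells was -0.21, against -0.04 as reported, and 30.6% of called genes rose, against 44.6%. The lowest member response was then 4.32. Across all groups 5 of 18 same-numbered pairs had correlated deviations over 0.1 (from -0.12 to 0.51). Of 12 arrays, 5 correlated best with an array of their own number in another group, so the numbers were not shown to pair the samples. With the replicate number as a block, 6 members passed after PBS, where 373 of all genes were lower, and 6 in wild-type cells, where 3123 rose. In Ifnar2-/- cells 0 members passed, where 109 genes rose and 29 fell. All 6 passed in the difference of responses and after IFN-β, where 1598 and 3041 genes were lower. The number of arrays limits precision, and the dimmest signal well above background was -5.46 to -5.02 on slide 3, against -6.66 to -6.07 on the other slides.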

Other observations

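The chromosomal neighbours of the members were read from the RefSeq gene order, taking the 5 protein-coding genes on either side of each member. Of 36 neighbours outside the 6 members, 22 had a tested probe placed on the same chromosome by the array files. After IFN-β in wild-type cells 7 of these 22 rose, 5 fell and 10 did not pass, against 17.6% and 21.8% of all genes that rose and fell. Gm5431 and 9930111J21Rik2, between Irgm and Ifi47, rose as given above. Beside Irgm, Trim7 fell by 2.51 (adjusted p 0.000217), and near Igtp, Gemin5 rose by 1.35 (adjusted p 3.22e-05). These genes were chosen after their values were seen.

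Olfr56, annotated as an olfactory receptor, lies 2 genes from Ifi47 in that order. Its probe had -2.31, -2.22 and -2.41 in wild-type cells after IFN-β, where it was well above background on 3 of 3 arrays, and was above background on none of the 3 wild-type PBS arrays. By the bound described above, its signal was at least 18.5-fold higher after IFN-β. The probe passed the filter only through the wild-type IFN-β arrays, so no p value is given for it. In Ifnar2-/- cells it was above background on 0 of 3 arrays after IFN-β and on 1 of 3 after PBS. Olfr56 was chosen after its values were seen.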
